A study of Rattus norvegicus with 6 samples.

Results

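The genes described here are the FoxO transcription factor genes Foxo1, Foxo3 and Foxo4 and 7 genes known as FoxO targets, namely Pik3ip1, Ccng2, Txnip, Sesn1, Sesn3, Fbxo32 and Bcl6. They were chosen by symbol, with earlier results of these data known, and all 10 were found among the 17327 gene symbols of the count files. RNA was sequenced from primary Schwann cells, the glia of peripheral nerves, grown from sciatic nerves of adult Wistar rats in 3 independent experiments. In each experiment, called a culture here, confluent cells were starved for 18 h in medium with 2% FBS and then received either 10 nM NRG1β1 (NRG1 samples, 3) or the ligand buffer alone (mock samples, 3) for 6 h. Both groups carried 10 µM forskolin, a drug that raises cAMP, and both had been expanded in a medium that itself contained neuregulin, so that the mock cells are starved and forskolin-treated rather than naive. The phosphorylation of AKT and the place of the FoxO proteins in the cell were not measured in these files, which hold mRNA counts only.

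FoxO proteins are forkhead transcription factors that bind DNA and switch on genes of growth arrest, stress resistance, protein breakdown and fasting metabolism. When a growth factor receptor engages PI3K, the kinase AKT phosphorylates the FoxO proteins, which are then held by 14-3-3 proteins and kept out of the nucleus, and transcription of their targets drops. In Schwann cells NRG1 binds ErbB3, which signals together with ErbB2, and PI3K-AKT is a main branch of that signal, known for its part in survival and in myelin growth. The mRNA of FoxO targets is therefore often read as an indirect measure of PI3K-AKT activity, to which the comparison of NRG1 with mock samples applies.

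FoxO proteins recognise short sequences, of which 2 classical forms were searched on both strands of the promoters in RefSeq (GRCr8 assembly), from 250 bases before to 50 bases after the start of each gene. The first form, GTAAACA, was present in 3.78% of all 33469 promoter windows, the second, CAAAACA, in 6.28%, and either form in 9.64%. A promoter was listed for 7 of the 10 genes (Foxo1, Foxo4, Pik3ip1, Ccng2, Sesn1, Sesn3 and Bcl6), and 2 of these held a match. The stretches that hold them are shown, 5′ to 3′ in the direction of the gene, because Pik3ip1 and Ccng2 are among the 5 genes that fell with NRG1. In a wider list of FoxO targets described further on, 7 of 37 listed promoters held a match. Of these genes Bcl2l11 and Mxi1 fell with NRG1, Insr, Klhl24 and Atg14 did not pass the test, and Igfbp1 and Trim63 had too few counts to be tested. The stretches of Bcl2l11 and Insr are added to show a match in a gene that fell and in a gene that did not pass. Capitals mark the match, and the letters TGTTTAC in Pik3ip1 and Insr are GTAAACA on the other strand.
Pik3ip1, chr14:82428255-82428334, plus strand: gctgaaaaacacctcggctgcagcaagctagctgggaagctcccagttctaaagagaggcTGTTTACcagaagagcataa
Ccng2, chr14:15097201-15097280, minus strand: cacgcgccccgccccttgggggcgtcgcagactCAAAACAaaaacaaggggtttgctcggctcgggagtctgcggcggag
Bcl2l11, chr3:135819807-135819886, plus strand: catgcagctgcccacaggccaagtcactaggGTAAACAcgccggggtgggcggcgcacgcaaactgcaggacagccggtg
Insr, chr12:6128859-6128938, minus strand: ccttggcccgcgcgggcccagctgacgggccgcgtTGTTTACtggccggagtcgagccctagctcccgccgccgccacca

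In Pik3ip1 the match covered the first 7 bases of the transcript, positions 1 to 7, and in Ccng2 it lay at positions -57 to -51 from the start. In Bcl2l11 it lay at positions -204 to -198 and in Insr at -100 to -94, counted from a listed start that is not the outermost one of the gene. These matches are a description of letters in a short window and say nothing about binding. The other 5 genes with a listed promoter had neither sequence in this window.

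Counts on genes ranged from 6821590 to 15475018 per library, and 3 counts, taken as the floor, corresponded to between 0.19 and 0.44 CPM (the usual library-scaled read count, with the library size taken over tested genes and multiplied by its TMM factor). The 10 genes were covered by 39 to 3204 counts in each sample, so none of them was near the floor. Culture 1 stood apart from both others. Pdgfra, Dcn, Thy1 and Acta2, known from fibroblasts and contractile cells, were at 870.1, 611.2, 1268.4 and 1812.8 CPM in mock sample 1, whereas in mock samples 2 and 3 Dcn and Thy1 were at 0 and Pdgfra and Acta2 at no more than 4.59 CPM. The 9 fibroblast markers summed to between 15310 and 71278 CPM in mock and between 15545 and 72358 CPM in NRG1 samples, with Dcn, Lum and Thy1 at 0 in cultures 2 and 3. Col3a1 and Postn were likewise highest in culture 1. Not all markers split this way, as Fbln1 was at 7.88, 5.33 and 7.80 CPM in mock samples 1, 2 and 3. Col1a1 was at 28250, 21494 and 13620 CPM there and was the largest part of the sum in every sample. Col1a2 was at no more than 0.225 CPM in any sample. The 10 Schwann cell markers summed to between 6290 and 16302 CPM in mock and between 4959 and 13342 CPM in NRG1 samples, and this sum was lower with NRG1 in each culture. Of 10 macrophage markers 5, including Ptprc and Adgre1, were at 0 in every sample. In such bulk RNA, fewer cells of a type and less RNA per cell cannot be told apart.

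Across the 10 genes, 5 fell following NRG1 stimulation and none rose. Those that fell were Pik3ip1, Fbxo32, Ccng2, Txnip and Sesn1, all of them target genes, with between 36.4% and 63.9% of the mock level left. None of the 3 FoxO factor genes passed the test. A gene is said here to fall or rise when edgeR's quasi-likelihood test, with the culture number as a block, gave an adjusted p of at most 0.01. Of all 9740 genes tested, 5.51% fell and 6.31% rose by this rule. The fitted log2 fold change was under 0 in all 10 genes, against 52.8% of all genes, and 7 of them (30.0% of all genes) were lower in each of the 3 cultures. Bcl6 is counted among these 7, although its NRG1 sample held 98.5% of mock in culture 1. The median of the log2 fold changes was -0.60, against -0.03 over all genes. DESeq2 with the same block also called 5 of the 10 as lower and none as higher. In the whole table it called 384 genes as lower and 570 as higher. None of the 10 was higher at an unadjusted p under 0.05, a rule for which no share of all genes was taken. With a further threshold of 1 on the size of the log2 fold change, Pik3ip1 and Fbxo32 were left. The share of all genes past both thresholds on the lower side was 1.91%.

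**Figure D1:**
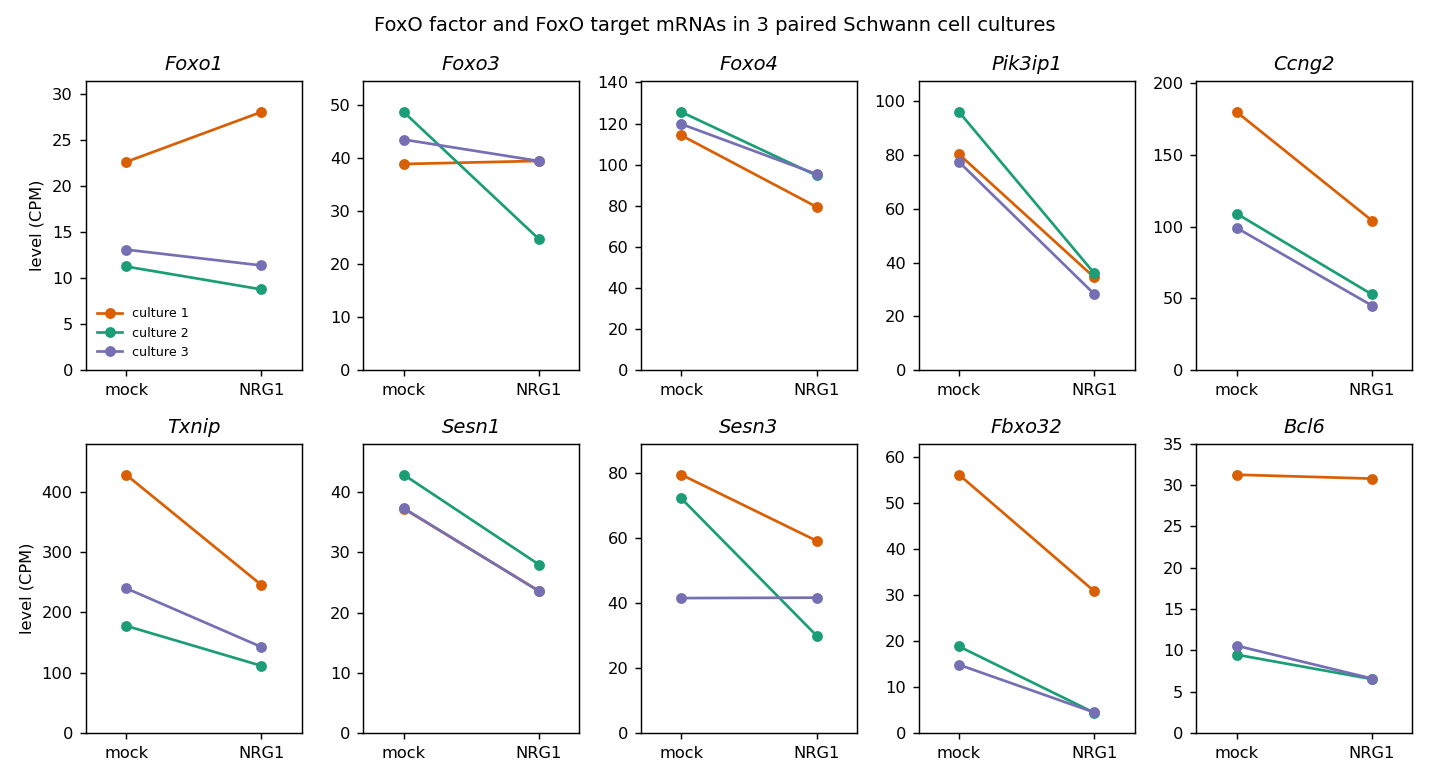
Level of each gene in CPM (vertical axis, from 0, its own scale in each panel) in mock and NRG1 samples, with a line joining both samples of a culture. The lines of Pik3ip1, Ccng2, Txnip, Sesn1, Fbxo32 and Foxo4 slope downward in all 3 cultures. Those of Bcl6 do so too, but the line of culture 1 is nearly flat. Culture 1 lies above the others for Txnip, Fbxo32, Bcl6, Foxo1 and Ccng2.

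Foxo4 had the steadiest level of the factor genes. It was at 114.2, 125.6 and 119.8 CPM in mock samples 1, 2 and 3 and at 79.5, 94.7 and 95.4 CPM in NRG1 samples 1, 2 and 3. Every NRG1 value was under every mock value, a pattern found in 9.94% of all genes tested. Its log2 fold change was -0.42 (SE 0.12, adjusted p = 0.018), so that Foxo4 missed the threshold although its 95% interval, from -0.67 to -0.17, did not reach 0. With no filter on low counts, its adjusted p was 0.0083.

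Foxo3 was at 38.9, 48.7 and 43.5 CPM in mock and at 39.5, 24.7 and 39.4 CPM in NRG1 samples. The groups overlapped, since only culture 2 showed a clear difference. Over all pairs the log2 fold change was -0.35 (SE 0.17, adjusted p = 0.15), with an interval from -0.72 to 0.01. Foxo1 was at 22.6, 11.2 and 13.1 CPM in mock and at 28.0, 8.77 and 11.4 CPM in NRG1 samples. Here the level was higher with NRG1 in culture 1 and lower in cultures 2 and 3. The log2 fold change of Foxo1 was -0.06 (SE 0.18, adjusted p = 0.84), and the interval, from -0.43 to 0.32, leaves room for a moderate change either way. Its sign turned when culture 2 was left out (0.06) or culture 3 (0.04). Of the 3 factor genes 1, Foxo4, had an unadjusted p under 0.05, and DESeq2 called none of them. Foxo6, the fourth FoxO gene of rodents, was not analysed here.

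Pik3ip1 encodes a membrane protein that binds the catalytic subunit of PI3K and restrains it. Its level was 80.3, 96.0 and 77.5 CPM in mock samples and 34.5, 36.1 and 28.3 CPM in NRG1 samples. The groups lay far apart, and the mock samples differed among themselves by a factor of 1.24 only. The NRG1 sample held 43.0%, 37.6% and 36.6% of the mock level in cultures 1, 2 and 3. Pik3ip1 had a log2 fold change of -1.36 (SE 0.12, adjusted p = 8e-06), which placed it at position 25 of 9740 genes by p-value.

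Ccng2 encodes cyclin G2, an unusual cyclin that is abundant in resting cells and slows the cell cycle. It was at 179.8, 109.1 and 99.1 CPM in mock and at 104.3, 52.8 and 45.1 CPM in NRG1 samples. The groups overlapped by a single value, because NRG1 sample 1 was above mock sample 3, yet within each culture the NRG1 sample was clearly the lower one. For Ccng2 the log2 fold change was -0.99 (SE 0.12, adjusted p = 7.8e-05), which just missed the further fold change threshold of 1. Without culture 1 it was -1.09. Its relative Ccng1, a classical p53 target, had a log2 fold change of -0.23 (SE 0.12, adjusted p = 0.2). The difference between both genes was not tested.

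Txnip encodes a protein that binds thioredoxin and limits glucose uptake. The levels were 428.1, 177.6 and 239.8 CPM in mock samples and 245.6, 111.4 and 142.6 CPM in NRG1 samples. Mock and NRG1 samples overlapped across cultures, but the ratio within a culture was nearly the same each time, at 57.4%, 62.7% and 59.5% of mock. This gave Txnip a log2 fold change of -0.74 (SE 0.12, adjusted p = 0.00052). Arrdc3 and Arrdc4, which encode related arrestin-domain proteins, had log2 fold changes of -0.47 (adjusted p = 0.06) and 0.32 (adjusted p = 0.49). The list of arrestin-domain and thioredoxin genes had 10 tested members, of which only Txnip passed.

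Fbxo32 encodes atrogin-1, the substrate-binding part of a ubiquitin ligase that is known from muscle wasting. Its levels were 56.1, 18.8 and 14.8 CPM in mock samples and 30.8, 4.38 and 4.45 CPM in NRG1 samples. Culture 1 held by far the most Fbxo32 in both conditions, so that its NRG1 sample was above mock samples 2 and 3. The NRG1 sample held 54.9%, 23.3% and 30.1% of mock in cultures 1, 2 and 3. At -1.46 (SE 0.21, adjusted p = 0.00023) the log2 fold change was the most negative of the 10 genes, with an interval from -1.90 to -1.01. Without culture 1 it was -1.89 (adjusted p = 1.1e-10), and whether the cultures differ in their response was not tested. Trim63, the other ubiquitin ligase of muscle atrophy, had 0 counts in every sample, and none of the other 7 tested genes of the ligase list passed.

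Sesn1 and Sesn3 encode sestrins, stress proteins that restrain the growth kinase mTORC1. Sesn1 was at 37.3, 42.9 and 37.3 CPM in mock and at 23.6, 28.0 and 23.6 CPM in NRG1 samples. The groups did not overlap, and the NRG1 sample held 63.3%, 65.2% and 63.1% of mock, the most even ratios of the 10 genes. The log2 fold change of Sesn1 was -0.65 (SE 0.13, adjusted p = 0.0028). With fewer pairs the call was lost, since the adjusted p was 0.011 without culture 1 and 0.034 without culture 3, at log2 fold changes of -0.64 and -0.62. Sesn3 behaved unevenly, with 79.4, 72.1 and 41.4 CPM in mock and 59.1, 29.9 and 41.6 CPM in NRG1 samples. Its level was lower with NRG1 in cultures 1 and 2 and equal in culture 3. The log2 fold change of Sesn3 was -0.55 (SE 0.19, adjusted p = 0.046), and it passed only without culture 3 (-0.81, adjusted p = 0.0043) or with no filter on low counts (adjusted p = 0.002). Sesn2, the third sestrin gene, had a log2 fold change of -0.05 (SE 0.14, adjusted p = 0.81).

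Bcl6 encodes a zinc finger repressor of transcription. It was at 31.3, 9.47 and 10.6 CPM in mock samples and at 30.8, 6.52 and 6.58 CPM in NRG1 samples. The levels were lower with NRG1 in cultures 2 and 3, while both samples of culture 1 were alike and far above the rest. Bcl6 had a log2 fold change of -0.38 (SE 0.18, adjusted p = 0.15), and without culture 1 it was -0.61 (adjusted p = 0.093). None of the 6 tested genes of the list of Bcl6 and its corepressors passed, by edgeR or DESeq2 or at an unadjusted p under 0.05. Bcl6b was under 1 CPM in every sample and was not tested.

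**Figure D2:**
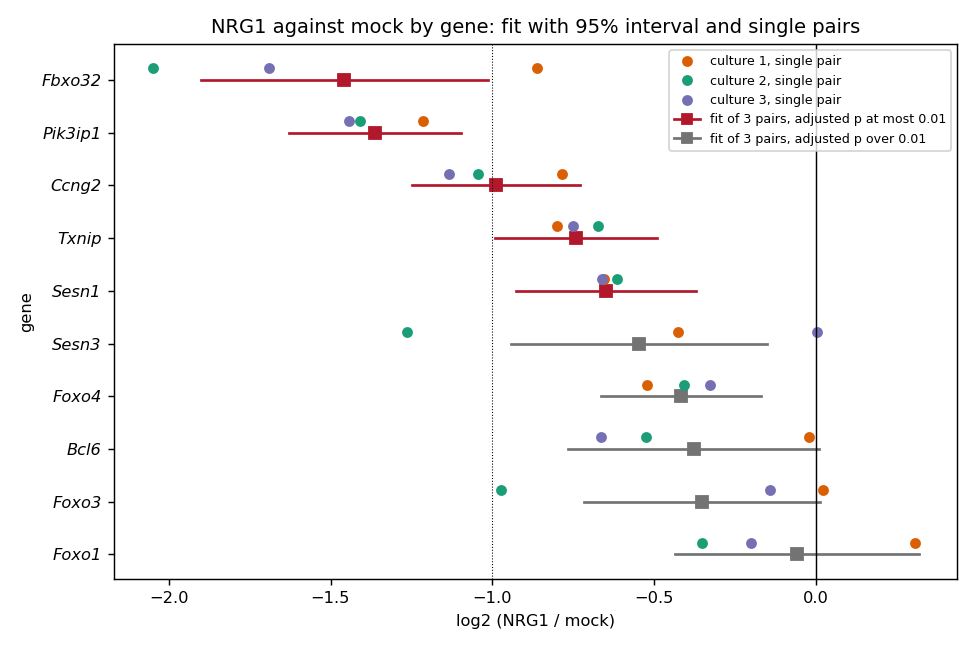
Log2 ratio of NRG1 to mock (horizontal axis) for each gene, with squares and bars for the fit of 3 pairs and its 95% interval and circles for the single cultures. The 5 genes in red fell (adjusted p up to 0.01), and the 3 circles of Sesn1 and of Txnip lie close together while those of Fbxo32, Sesn3 and Foxo3 are spread.

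The starting level of these genes varied between cultures in a gene-specific way. Relative to the mean of mock samples 2 and 3, mock sample 1 held 3.34 times as much Fbxo32, 3.12 times as much Bcl6, 2.05 times as much Txnip, 1.86 times as much Foxo1 and 1.73 times as much Ccng2. For Foxo3, Foxo4, Pik3ip1 and Sesn1 the same ratio lay between 0.84 and 0.93, and for Sesn3 it was 1.40. The first 5 genes were thus higher in the culture that also held the fibroblast markers Dcn and Thy1, and the part of these other cells in the levels was not tested. With 1 culture on 1 side, no test of this difference was made. In both cultures without Dcn and Thy1 counts, the NRG1 sample was the lower one for 9 of the 10 genes, all but Sesn3, which was equal in culture 3. The share of all genes lower in both of these cultures was not taken, so this count has no background to set it against.

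The calls depended on comparing each NRG1 sample with the mock sample of its own culture. With all 3 pairs and the block, 5 genes fell. In edgeR without the replicate block none of the 10 passed, with adjusted p-values from 0.14 for Pik3ip1 to 0.99 for Foxo1, although 4 had an unadjusted p under 0.05. No gene of the whole table passed in that fit either, and the common biological coefficient of variation was 0.37 in place of 0.12. DESeq2 without the block called 1 of the 10 genes, Pik3ip1 (adjusted p = 1.5e-08), and the share of all genes it called is not given here. Without culture 1, the paired fit called 4 of the 10 genes, which were Pik3ip1, Ccng2, Txnip and Fbxo32, and 6.05% of all genes fell. The same 4 genes also passed without culture 2, where Sesn1 passed as well, and without culture 3, where Sesn3 did.

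**Figure D3:**
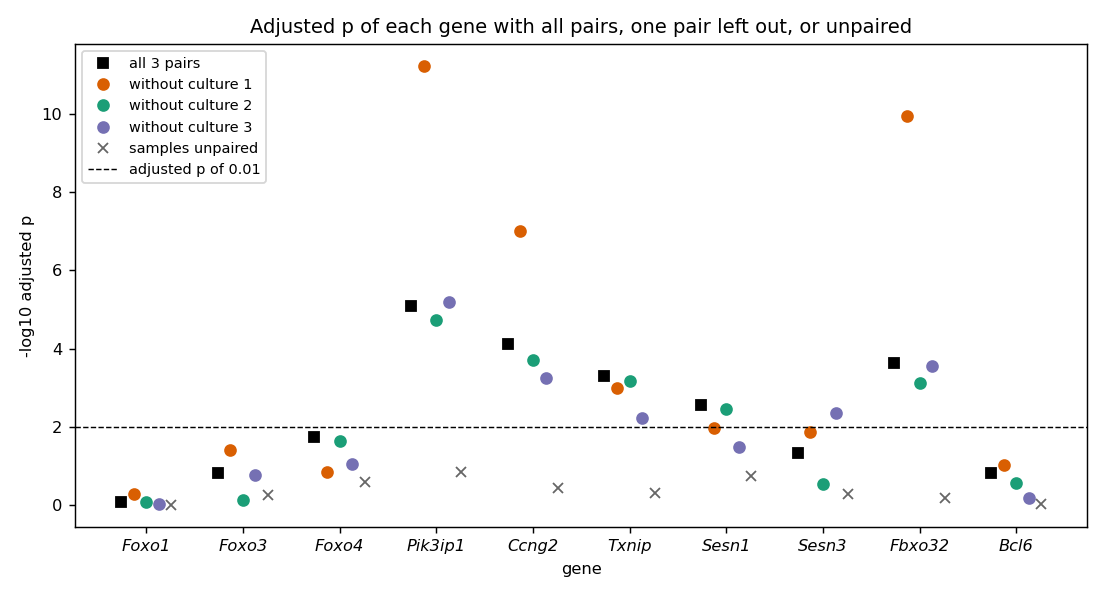
Adjusted p-value of each gene on a -log10 scale (vertical axis) with all 3 pairs, with each culture left out, and with the samples treated as unpaired, where the dashed line marks an adjusted p of 0.01. Pik3ip1, Ccng2, Txnip and Fbxo32 stay above the line in each paired fit, and all crosses of the unpaired fit lie under it.

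A wider list of 50 other genes known to be activated by FoxO factors was then read from the same fit. Of these, 49 were in the files and 42 were tested. A total of 13 fell and 1 rose, which makes 31.0% lower against 5.51% of all genes. The median log2 fold change of the 42 genes was -0.42. All 13 that fell were lower in each of the 3 cultures. Selection by a test with the culture as block favours such genes, so this adds no separate evidence. The call of many of them needed all pairs, with 13 lower without culture 1, 6 without culture 2 and 3 without culture 3, when 6.05%, 3.79% and 2.49% of all genes fell. Members of the list are also known as targets of other factors, and the list was made with earlier results of these data known.

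Gadd45a, a stress gene of growth arrest and DNA repair, was at 294.4, 354.0 and 264.8 CPM in mock and at 164.1, 112.0 and 85.5 CPM in NRG1 samples. The groups were well apart, with a log2 fold change of -1.38 (SE 0.16, adjusted p = 3.9e-05). Bcl2l11, which encodes the cell death protein BIM, had mock levels of 120.4, 101.1 and 104.5 CPM and NRG1 levels of 81.7, 39.2 and 56.4 CPM. It too showed no overlap, at a log2 fold change of -0.93 (SE 0.14, adjusted p = 0.00046). Gadd45a and Bcl2l11 also passed with any culture left out. Pdk4, a kinase gene that holds back glucose oxidation, had the most negative value of the list, -1.73 (SE 0.42, adjusted p = 0.0092). It rested on 20, 25 and 41 counts in mock and 15, 4 and 11 counts in NRG1 samples, and the call was lost without culture 2 (adjusted p = 0.054) without culture 3 (adjusted p = 0.071) and in DESeq2 (adjusted p = 0.049).

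Irs2, an adaptor of the insulin receptor that FoxO factors induce when insulin is low, was at 165.8, 300.7 and 330.4 CPM in mock and at 146.4, 156.1 and 177.8 CPM in NRG1 samples. The difference was small in culture 1 and large in the others. For Irs2 the log2 fold change was -0.68 (SE 0.15, adjusted p = 0.0049), and without culture 2 or 3 the adjusted p was 0.024 or 0.056. The autophagy gene Gabarapl1 had a log2 fold change of -0.63 (adjusted p = 0.0031), the mTORC1 inhibitor gene Ddit4 of -0.69 (adjusted p = 0.0034) and the stress gene Tp53inp1 of -0.79 (adjusted p = 0.0045). All 3 lost the call without culture 2 and, apart from Tp53inp1, without culture 3, with adjusted p-values between 0.011 and 0.057. The other 6 that fell were Rbl2, Mxi1, Ulk1, Tp53inp2, Pnrc1 and Btg1, with log2 fold changes between -0.62 and -0.48.

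The gene that rose in this list was Trib1, a pseudokinase gene, with a log2 fold change of 0.74 (SE 0.15, adjusted p = 0.0031), and it did not pass without culture 1 or without culture 3 (adjusted p = 0.019 and 0.023). A further 28 genes did not pass, with log2 fold changes from -0.82 to 0.31. Among these were textbook targets, namely Cdkn1b, which encodes the cell cycle inhibitor p27 (-0.32, adjusted p = 0.073), and Insr, the insulin receptor gene (0.15, adjusted p = 0.54). The remaining 7 did not pass the filter on low counts. Of these Tnfsf10, Pck1 and Trim63 were at 0 in every sample. Pmaip1, a cell death gene, had 73 and 81 counts in the mock and NRG1 samples of culture 1 and at most 1 count in each sample of cultures 2 and 3.

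**Figure D4:**
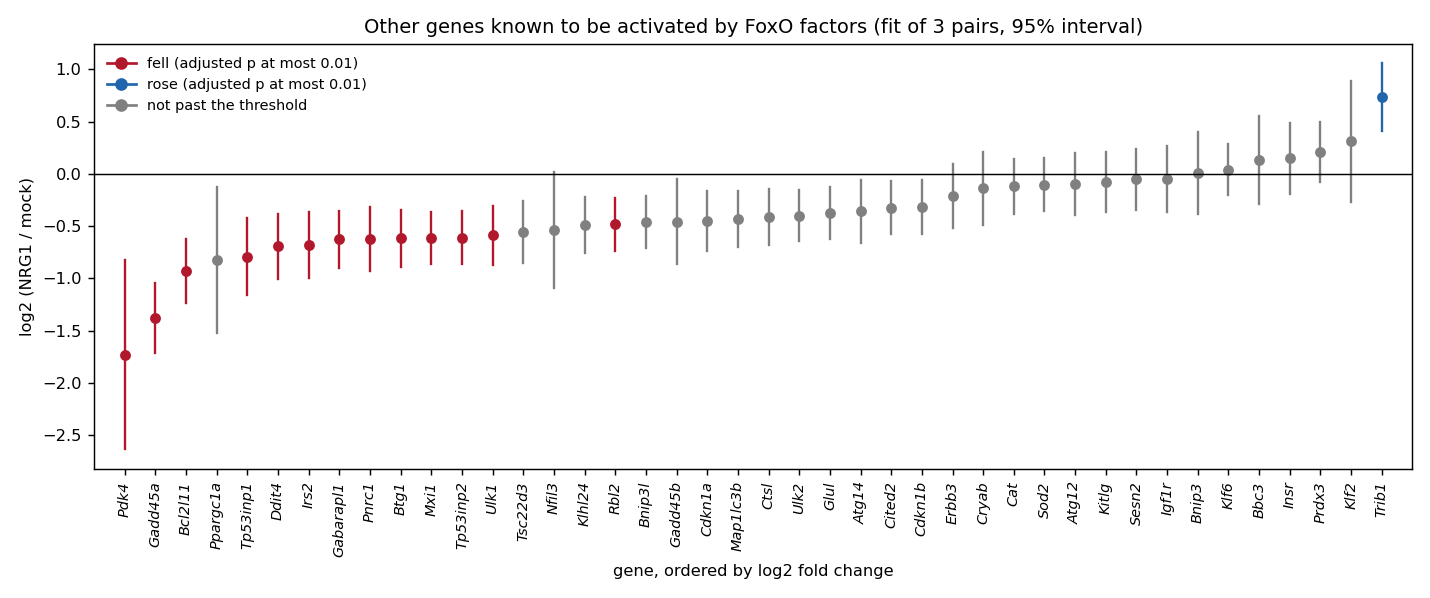
Log2 ratio of NRG1 to mock (vertical axis) with its 95% interval for the 42 tested genes of the wider FoxO target list, ordered by value. The 13 genes in red that fell lie between -1.73 and -0.48, and Trib1, in blue, is the gene that rose.

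Genes that FoxO factors are known to repress were few, and this list too was made with earlier results of these data known. Of 5 tested, 2 rose by edgeR, or 40% against 6.31% of all genes, and 2 rose by DESeq2. At an unadjusted p under 0.05, 3 were higher, a rule for which no share of all genes was taken. None was lower by any of these rules. Ccnd1, which encodes cyclin D1 and drives entry into the cell cycle, was at 347.3, 420.8 and 685.9 CPM in mock and at 1050.4, 1104.3 and 1559.2 CPM in NRG1 samples. Every NRG1 value was above every mock value, as for 10.2% of all genes, and the log2 fold change was 1.39 (SE 0.13, adjusted p = 1.2e-05). Myc had a log2 fold change of 0.72 (SE 0.13, adjusted p = 0.0017), and without culture 1 its adjusted p was 0.014.

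Components of the PI3K-AKT pathway itself changed little at the mRNA level. Of 40 listed genes 33 were tested, of which 2 fell (6.06%, against 5.51% of all genes) and none rose. DESeq2 called 2 of the 33 as lower and 1 as higher. At an unadjusted p under 0.05, 6 were lower and 3 higher, a rule for which no share of all genes was taken. Both genes that fell encode adaptors, Irs2 as given above and Gab1 with a log2 fold change of -0.52 (SE 0.13, adjusted p = 0.0093). Gab1 did not pass when any culture was left out, with adjusted p-values between 0.011 and 0.039, and Irs2 was the gene that remained without culture 1. Akt1 had a log2 fold change of 0.40 (SE 0.12, adjusted p = 0.022), and it was higher with NRG1 in each culture. For Akt2, Pik3ca and Pik3r1 the log2 fold changes lay between -0.22 and 0.13, with adjusted p-values of at least 0.22.

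Of the 22 tested genes whose proteins hold, modify or export FoxO proteins, such as the 14-3-3 genes and Mdm2, none passed in either direction by edgeR or by DESeq2, and 3 were lower and 3 higher at an unadjusted p under 0.05. Since Sesn1 and several other genes above are also targets of p53, 18 p53 target genes were read as well. Of the 15 tested, 3 fell (Btg2, Plk2 and Tp53inp1), or 20% against 5.51% of all genes, and 1 rose (Aen, 0.53, SE 0.12, adjusted p = 0.0068). Aen did not pass in DESeq2 (adjusted p = 0.0103) or without culture 1 or 3 (adjusted p = 0.045 and 0.044). Btg2, an antiproliferative gene, had a log2 fold change of -1.63 (SE 0.31, adjusted p = 0.0019), or -1.08 (adjusted p = 0.023) without culture 3. Plk2 had one of -0.93 (SE 0.13, adjusted p = 0.00022). The median of the 15 genes was -0.11. Sesn1 and Gadd45a, which both fell, are not in this p53 list, so its counts and median leave them out. Of the 9 tested Schwann cell markers 3 fell, or 33.3% against 5.51% of all genes, among them Cdh19 (-1.10, adjusted p = 7.9e-05) and S100b (-0.58, adjusted p = 0.0088), and the part of these markers in the values of the FoxO targets was not tested. Without culture 1 the call of S100b was lost (adjusted p = 0.057), as it was without culture 3 (adjusted p = 0.14).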

How the data were processed

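The authors aligned 6 poly(A) RNA libraries to rn5 (TopHat 2.0.10), assigned reads to RefSeq genes by htseq and deposited the raw counts, not normalised. The strand setting of the counting is not given in the sources used here, so reads of overlapping antisense genes cannot be told apart. The 5 htseq summary lines, between 50.1% and 53.0% of the alignments in a file, were kept out of library sizes and tests. Groups and replicate numbers were taken from the sample titles. The members and gene lists were chosen with earlier results of these data known.

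Genes were filtered with filterByExpr (minimum count 10), which kept 9740 of 17327, normalised by TMM and tested with edgeR 4.0.16 (R 4.3.3) by quasi-likelihood, blocked by replicate number, since the study's own design was paired. P-values were adjusted over all tested genes by the Benjamini-Hochberg method. Standard errors were derived from the log2 fold change and the F statistic, and ratios of single pairs used log2 CPM with a prior count of 2. The pairing comes from the independent experiments of the labels. Deviations from group means correlated across genes with r of 0.91, 0.67 and 0.81 in pairs 1, 2 and 3, and with -0.80 to 0.51 across numbers. No pair of libraries was the same within sampling noise (chi-square at least 22.9 times its degrees of freedom). Named were all members, the list genes that passed and moved alike in 3 pairs (at most 8 per list), and a fixed set of relatives. Alternatives were no replicate block, DESeq2 1.42.0, RLE or no scaling factors, other filters, another threshold, the fold change inside the test and each pair left out. DESeq2 without the block and the unpaired fit without replicate 1 were added after seeing the data. The procedure was tested on simulated counts with a single biological coefficient of variation for all genes. Changes were placed only in well-covered genes there, so changes in genes with few counts, such as Pdk4, were not simulated. Promoters and their coordinates came from RefSeq (GRCr8) tables, while the counts used rn5. Gene lengths were not used, so levels are not compared between genes. Some genes of the lists are counted but not reported by name here.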

Additional observations from a re-analysis of the deposited data

How the results depend on the processing

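The 10 members kept a negative log2 fold change under all alternatives, with the exception of Foxo1, which was at 0.03 without the replicate block, at 0.05 in DESeq2 without the block, at 0.06 without replicate 2 and at 0.04 without replicate 3. RLE scaling, library sizes alone, DESeq2 with the block and at least 10 counts in every sample changed no call of a member. The median of all genes moved by less than 0.1 between scalings.

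Without the replicate block, the numbers of members that fell (5 in the paired fit), of members past both thresholds (2), of other FoxO-activated genes that fell (13) or rose (1) and of PI3K-AKT genes that fell (2) were all 0. Testing against the fold change threshold, a stricter question, also gave 0 for these 5 counts. In DESeq2 without the replicate block they were 1, 1, 3, 0 and 0. In the unpaired fit without replicate 1 they were 3, 3, 1, 0 and 0, so that members past both thresholds were 3 there. The shares of all genes called in both of these fits are not given here. An adjusted p of at most 0.05 gave 21 other FoxO-activated genes that fell, 4 PI3K-AKT genes that fell and 3 that rose. The number of PI3K-AKT genes that rose was 1 in DESeq2 with the block, with RLE scaling, with no low-count filter and with at least 10 counts in every sample. When a replicate pair was left out, members that fell ranged from 4 to 5, members past both thresholds from 2 to 3, other FoxO-activated genes that fell from 3 to 13 and that rose from 0 to 1, PI3K-AKT genes that fell from 0 to 1 and that rose from 0 to 1. The cause of these shifts was not tested. Pdk4 rests on 4 to 41 counts in a sample.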
